A study of Mus musculus with 4 samples.

Results

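The growth factors that microglia can supply to oligodendrocyte precursors and to blood vessels were followed through 7 genes, Igf1, Tgfb1, Pdgfa, Pdgfb, Vegfa, Vegfb and Grn. The genes were taken by name from a list of 16342 genes in the count tables, and all 7 were listed in every table. Cells came from the corpus callosum, the large white matter tract between the hemispheres, of male C57BL/6 mice aged 13 weeks. The week 5 group (2 libraries) had been given cuprizone, a copper chelator that kills oligodendrocytes and strips myelin, and the week 0 group (2 libraries) was not treated. In both groups live, nucleated cells carrying CD11b, a surface integrin of myeloid cells, were sorted before droplet-based sequencing of the 3′ ends of transcripts. Whether the 2 replicates of a week are separate animals is not stated, and the p-values therefore reflect library-to-library spread that may be technical. The sort keeps myeloid cells, so the precursors, endothelial cells and pericytes on which these factors act were not sampled.

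Insulin-like growth factor 1 (Igf1) promotes survival and maturation of oligodendrocyte lineage cells through the receptor Igf1r, and in developing white matter it comes in part from microglia. Platelet-derived growth factor A (Pdgfa) drives division of oligodendrocyte precursors through Pdgfra, and Pdgfb recruits pericytes to vessels through Pdgfrb. Vegfa is the main growth signal for endothelial cells, while Vegfb is a related ligand of Flt1 and Nrp1. Transforming growth factor beta 1 (Tgfb1) maintains the microglial state, and progranulin (Grn) is a secreted and lysosomal glycoprotein whose loss disturbs microglial lysosomes.

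The tables held 1000 barcodes each, with 6559032 and 3322818 UMIs (unique molecular identifiers, 1 for each captured transcript) in week 5 replicates 1 and 2, and 2415001 and 4631622 in week 0 replicates 1 and 2. After filtering 3707 cells fell into 10 clusters, made without the 7 genes. In 7 of them the 12 microglia markers summed to at least 27.7 times the level of the next marker list, against at most 0.844 times in the other 3, and these 7 are called the microglial clusters. They held 914 and 853 cells at week 5, and 902 and 900 at week 0. Each is called by a leading gene, since only those led by Fam110a and by Crybb1 had a microglia marker among their 10 leading genes. Those led by Rtp4, Ccl4 and Gm43221 had none. The deepest, led by Apoc1 and Spp1, also had none, and it had the monocyte marker Fn1 there. For that reason a comparison of all cells, which needs no names, stands beside the sum over the 7 clusters. Levels are in CPM, a gene's UMIs relative to every UMI counted in the same cells, and changes are log2 fold changes of week 5 over week 0 with their standard errors (SE). The other clusters resembled border-associated macrophages (100 cells), choroid plexus epithelium (23 cells) and oligodendrocytes (15 cells).

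Igf1 was the member that rose. In the 7 microglial clusters it had 1138 and 175 UMIs, or 184 and 58.0 CPM, in week 5 replicates 1 and 2, against 8 and 5 UMIs, or 3.60 and 1.13 CPM, in week 0 replicates 1 and 2. Every week 5 library lay above both week 0 libraries, and the 2 week 5 libraries differed from each other by 3.18-fold. The means were 121 ± 89.4 CPM at week 5 and 2.37 ± 1.74 CPM at week 0 (SD, n = 2 each). The log2 fold change was 6.21 (SE 0.71, adjusted p = 0.000603 by edgeR's quasi-likelihood test). Because Igf1 was nearly absent at week 0, it entered the test through its week 5 counts. Leaving out week 5 replicate 1 gave 4.91 and leaving out week 5 replicate 2 gave 6.93. Leaving out week 0 replicate 1 gave 7.01 and leaving out week 0 replicate 2 gave 5.39, and all 4 fits called Igf1.

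Igf1 lies on chromosome 10 at 87858265-87937042, plus strand (GRCm38, GENCODE vM21). The 250 bases before its start in RefSeq are shown because it is the member that changed. They span chr10:87860861-87861110, plus strand (GRCm38.p6), inside the gene as GENCODE draws it. Capitals mark a GAGGAA, the core bound by the myeloid factor PU.1, at base 191. They also mark TGAATCA at base 214, a match to TGANTCA, the pattern searched for AP-1 with any base at N. Bases are counted from the 5′ end.
Igf1: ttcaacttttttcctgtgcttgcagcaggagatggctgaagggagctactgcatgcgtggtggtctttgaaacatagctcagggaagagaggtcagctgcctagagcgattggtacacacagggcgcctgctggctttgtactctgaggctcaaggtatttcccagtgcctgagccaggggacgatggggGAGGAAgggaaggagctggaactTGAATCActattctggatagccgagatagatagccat
Both strands were searched, and the 2 matches do not overlap. Of 27025 mouse promoter windows of this length, 23.1% held GAGGAA and 6.87% held TGANTCA. The E-box CACGTG (6.05% of windows) and the TATA box TATAAA (13.0%) were not found in it. Such a match describes letters and does not show binding.

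**Figure D1:**
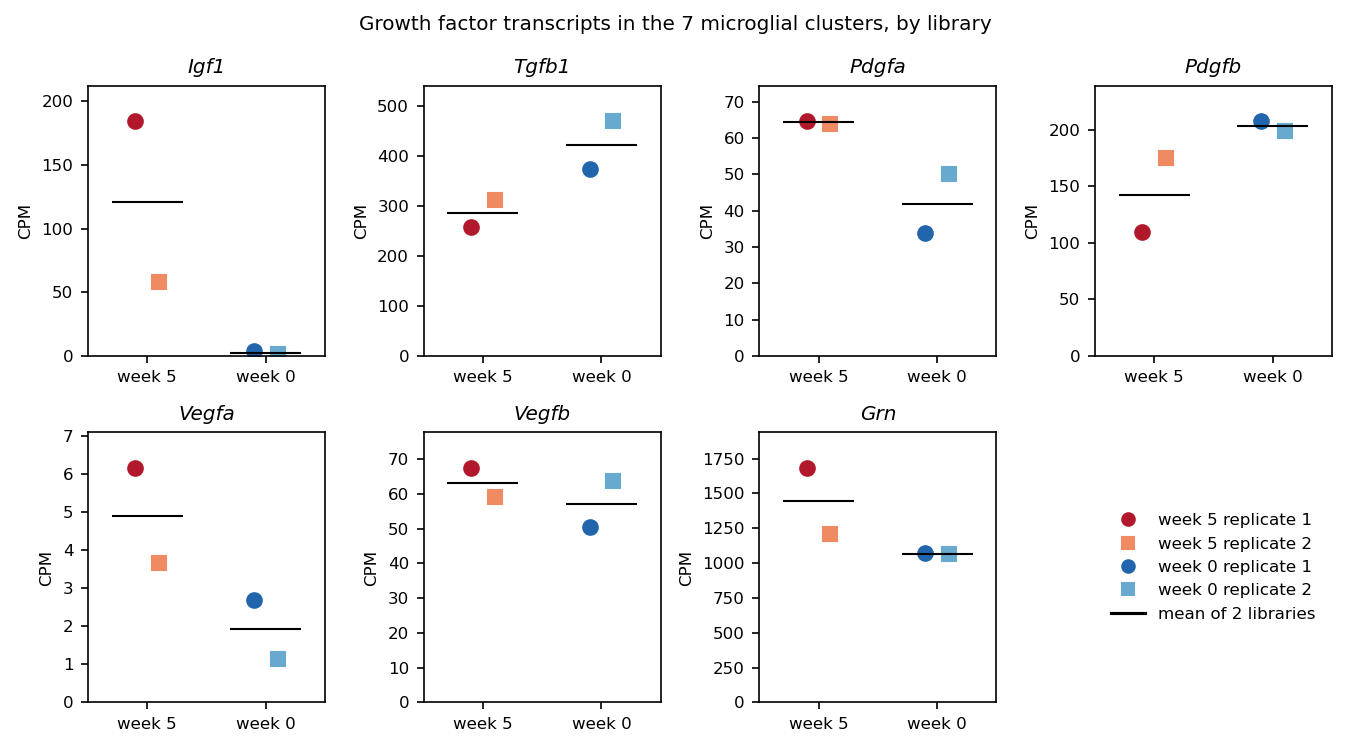
CPM of the 7 growth factor genes (y axis, linear from 0) in the 7 microglial clusters of each library; points are libraries, week 5 left of week 0, and lines are group means. Igf1 stands at 184 and 58.0 CPM at week 5 and at 3.60 and 1.13 CPM at week 0, while the Vegfb points of both weeks overlap.

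Of the 7 members, 1 rose and 0 fell in the microglial clusters, where edgeR called 3.48% of 11065 genes tested (385 genes). Counted upward alone, 3.13% of genes were called, and downward alone 0.352%. In all cells the count was the same, 1 rose and 0 fell, beside 2.69% of 11247 genes called, 2.44% upward and 0.249% downward. The members' median log2 fold change in the microglial clusters was 0.70, against -0.01 over all genes. With no TMM scaling the median of all genes moved to -0.25, so small changes are best read against that shift.

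In all cells Igf1 had 184 and 55.8 CPM at week 5, against 18.3 and 1.35 CPM at week 0. Its log2 fold change was 4.16 (SE 0.85, adjusted p = 0.0311 by edgeR), and DESeq2's Wald test did not call it (3.95, adjusted p = 0.245). The lowest and highest log2 fold changes on leaving out a library were 2.85 without week 5 replicate 1 and 6.74 without week 0 replicate 1. The smaller change in all cells came with the macrophage-like cluster, which held 35 of the 43 Igf1 UMIs of week 0 replicate 1.

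Within the microglial clusters, Igf1 lay mainly in the Spp1-led cluster. This cluster also led with Apoc1, Fabp5, Cst7, Apoc4, Gpnmb and Lpl, genes of lipid handling and of the response of microglia to disease. Its cells were 23.0% and 4.81% of those in week 5 replicates 1 and 2. At week 0 there was 1 such cell of 926 in replicate 1 (0.108%) and 0 of 905 in replicate 2, which allows up to 0.331%. It held 87.8% (95% exact binomial interval 85.8 to 89.6) of the Igf1 UMIs of week 5 replicate 1 and 54.4% (46.9 to 61.8) of those of week 5 replicate 2. Its Igf1 level was 359 CPM (95% Poisson interval 338 to 381) in week 5 replicate 1 and 376 CPM (305 to 457) in week 5 replicate 2. These 2 intervals, which cover counting error only, overlap. The cluster's share of cells was 23.0% in one library and 4.81% in the other. The part of that share in the Igf1 gap between the replicates was not tested. Cells of the Spp1-led cluster were deep, with a median of 13464 and 5210 UMIs in week 5 replicates 1 and 2. Over the 7 clusters together the median was 6118 and 2340 UMIs in those libraries.

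Igf1 was unevenly spread among cells of the Spp1-led cluster. In week 5 replicate 1, 188 of 221 of its cells had at least 1 Igf1 UMI, with a median of 4 and a maximum of 33 per cell. In week 5 replicate 2, 24 of 44 had one, with a median of 1 and a maximum of 12. The 22 highest of the 221 cells held 32.0% of their Igf1 UMIs. After each cell was thinned to 1000 UMIs, 29.0% and 30.2% of its cells had an Igf1 UMI in week 5 replicates 1 and 2. At full depth the shares were 85.1% and 54.5%.

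Igf1 was also raised outside that cluster. Over the sum of the other 6 microglial clusters it was 28.0 and 27.6 CPM in the week 5 libraries, against 3.60 and 1.13 CPM in the week 0 libraries. The log2 fold change without the Spp1-led cluster was 3.84 (SE 0.39, adjusted p = 8.19e-07 by edgeR). The Ccl4-led cluster, which also led with Ccl3, Atf3 and Csf1, had 117 and 221 CPM in its 80 and 84 cells at week 5. Its 7 cells at week 0 had 3 Igf1 UMIs between them, among 21231 and 12507 UMIs of all genes in replicates 1 and 2. That is too few to say whether the Igf1 level of such cells changed. Ccl4-led cells were 8.32% and 9.19% of all cells at week 5, against 0.432% and 0.331% at week 0. The part of cell numbers was not tested. The Rtp4-led cluster, with interferon-responsive genes such as Isg15, had 16.6 and 18.8 CPM at week 5, against 12.7 and 12.9 CPM at week 0, values whose counting intervals overlap. The Fam110a-led cluster, which led with the homeostatic genes P2ry12 and Tmem119, had 1 UMI in 113 cells at week 5 and 3 UMIs in 717 cells at week 0. Of these cells 95 and 658 came from replicate 2 of their week. The pooled week values of this cluster, here and below, therefore rest mostly on a lone library per week. The Crybb1-led cluster had 0 UMIs in 21 cells at week 5 and 0 in 192 cells at week 0, which allows up to 14.3% and 1.56% of cells with a UMI.

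At a finer clustering most Ccl4-led cells fell into 2 groups that also took in cells of other clusters. A group led by Lilrb4a and Fam20c held 171 cells, of which 111 were Ccl4-led and 45 and 15 came from the smaller and the larger Gm43221-led cluster. A group led by Ccl4, Ccl3 and Egr1 held 62 cells, of which 57 were Ccl4-led. The Lilrb4a-led group had 155 and 263 CPM of Igf1 in the week 5 libraries, and the Ccl4, Ccl3 and Egr1 group 89.7 and 33.4 CPM. In the same clustering the 23 choroid plexus-like cells were joined by 24 cells of the Spp1-led cluster, 21 of them from week 5 replicate 2. Those 21 cells had 28 Igf1 UMIs (414 CPM) and 0 UMIs of the choroid plexus markers. The 6 choroid plexus-like cells of that library had 0 Igf1 UMIs.

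**Figure D2:**
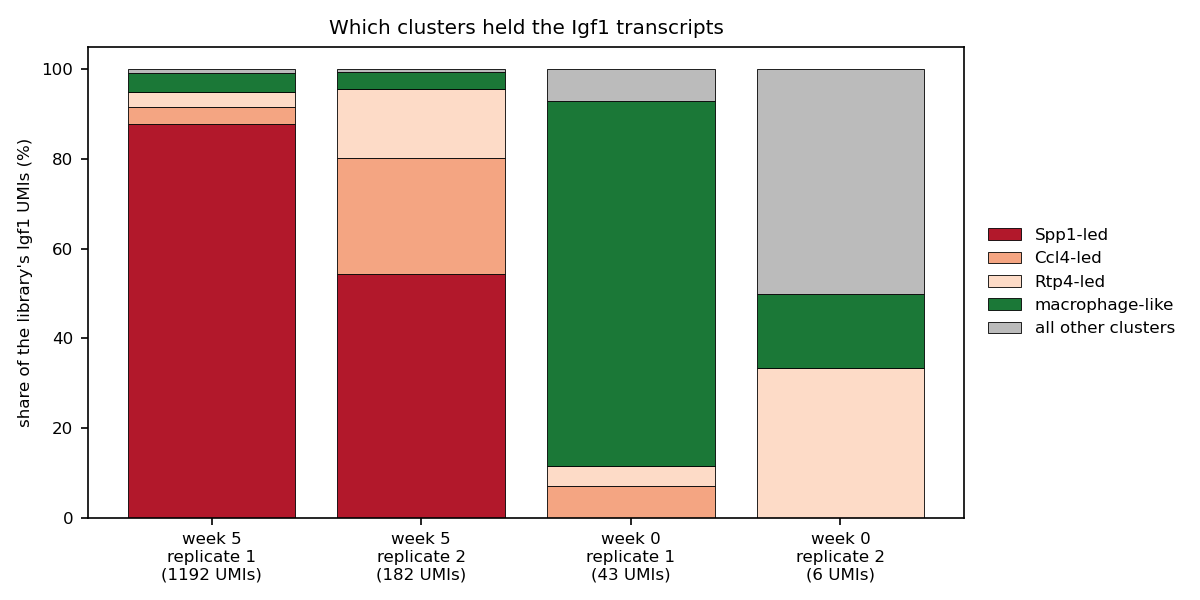
Share (%) of the Igf1 UMIs of each library (y axis, from 0) held by each cluster, with the library's number of Igf1 UMIs under its bar. The Spp1-led cluster holds 87.8% and 54.4% at week 5, and the macrophage-like cluster 81.4% and 16.7% at week 0.

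Border-associated macrophages are long-lived macrophages of the meninges and the spaces around vessels. The macrophage-like cluster had 251 and 36.1 CPM of Igf1 in week 5 replicates 1 and 2, from 52 and 7 UMIs, against 311 and 37.9 CPM in week 0 replicates 1 and 2, from 35 and 1 UMIs. The weeks overlapped and the replicates of each week were far apart. At the finer clustering 27 cells led by Ms4a4b, Ccl5 and Nkg7 left it, and the remaining 73 macrophage-like cells had 299 and 65.8 CPM at week 5, against 438 and 51.6 CPM at week 0. The 27 cells had 0 Igf1 UMIs, which allows a share of up to 11.1% of cells with a UMI. They carry no cell type name, because T and NK cell markers gave 554 UMIs in the 15 cells of week 5 replicate 2, 1 UMI in the 5 cells of week 5 replicate 1 and 0 UMIs in the 7 cells of week 0.

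The share of microglial cells with an Igf1 UMI followed the same order. With each cell thinned to 1000 UMIs, 9.84% (84 of 854) and 3.86% (29 of 752) of cells had one at week 5, against 0.264% (2 of 757) and 0.120% (1 of 831) at week 0. Unthinned, the shares were 26.7% and 7.50% at week 5, against 0.33% and 0.444% at week 0. The exact two-sided permutation test over libraries gave p = 0.33, the smallest that 2 against 2 allows.

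Of 14 marker lists, 3 were higher in both week 5 libraries of the microglial clusters than in both week 0 libraries, as Igf1 was. Another 6 were lower. With so few libraries chance alone often gives such an order, and its share among all genes was not counted. The higher lists were those of monocytes, oligodendrocyte precursors and T and NK cells. The 8 monocyte genes summed to 145 and 37.1 CPM at week 5, against 9.90 and 14.0 CPM at week 0, with Ly6c2, Chil3 or Hp at 0 in each library. The 7 precursor genes summed to 22.0 and 8.95 CPM at week 5, against 4.95 and 1.81 CPM at week 0, with Pdgfra and Olig2 at 0 in each library. The 11 T and NK cell genes summed to 0.97 and 6.63 CPM at week 5, against 0.90 and 0.68 CPM at week 0. The 12 microglia markers summed to 20364 and 25373 CPM at week 5, against 33728 and 37678 CPM at week 0. The 12 macrophage markers summed to 254 and 259 CPM at week 5, against 400 and 264 CPM at week 0. Their part in the Igf1 result was not tested.

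Pdgfa, the mitogen of oligodendrocyte precursors, was higher in both week 5 libraries without passing the test. It had 64.7 and 64.0 CPM at week 5, against 33.7 and 50.05 CPM at week 0 in the microglial clusters. The weeks did not overlap, but with so few libraries chance alone often gives such a gap. The same limit holds wherever weeks are said not to overlap for the members below. The means were 64.3 ± 0.48 CPM at week 5 and 41.9 ± 11.5 CPM at week 0 (SD, n = 2 each). The log2 fold change was 0.84 (SE 0.24, adjusted p = 0.101 by edgeR) there and 0.80 (adjusted p = 0.166) in all cells. Without the filter on low counts it passed in the microglial clusters (0.83, adjusted p = 0.0181). Thinned to 1000 UMIs, 4.2% and 6.1% of cells had a Pdgfa UMI at week 5, against 2.8% and 4.0% at week 0. Thinned to 1500 UMIs the weeks overlapped (6.8% and 6.2%, against 5.1% and 7.6%). They also overlapped unthinned (20.9% and 14.9%, against 7.2% and 19.0%). Pdgfa lies on chromosome 5 at 138976014-138997370, minus strand, and shares exonic bases with the antisense gene 6330403L08Rik, and no source used here says whether the counting used the strand, so its reads are uncertain to that extent.

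The cells that carried most Pdgfa per UMI were those of the Ccl4-led cluster. It had 212 (95% Poisson interval 168 to 264) and 240 CPM (179 to 316) in week 5 replicates 1 and 2. In the Spp1-led cluster the values were 79.2 and 64.5 CPM, and in the Rtp4-led cluster 32.7 and 62.4 CPM. The 7 Ccl4-led cells at week 0 had 10 Pdgfa UMIs, or 296 CPM (142 to 545). Those 7 cells are too few to say whether the Pdgfa level of such cells changed. Ccl4-led cells were 8.32% and 9.19% of all cells at week 5, against 0.432% and 0.331% at week 0. The part of these shares in the Pdgfa values was not tested. At the finer clustering the group led by Ccl4, Ccl3 and Egr1 had 224 and 345 CPM at week 5 and the Lilrb4a-led group 103 and 165 CPM, the opposite order to Igf1. The Fam110a-led cluster had 37.5 CPM at week 5 and 44.7 CPM at week 0.

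Pdgfb, the pericyte factor, lies on chromosome 15 at 79995874-80014977, minus strand. It had 109 and 175 CPM at week 5, against 207 and 199 CPM at week 0 in the microglial clusters. The weeks did not overlap, and the log2 fold change was -0.31 (SE 0.24, adjusted p = 0.692 by edgeR). It was lowest in the Spp1-led cluster among the microglial clusters at week 5 that had at least 100 cells, with 68.2 and 110 CPM in replicates 1 and 2. The Ccl4-led cluster was highest, with 239 and 353 CPM at week 5 and 29 UMIs, or 860 CPM (576 to 1235), in its 7 cells at week 0. The Fam110a-led cluster had 198 CPM at week 5 and 200 CPM at week 0. The macrophage-like cluster had 38.6 and 51.5 CPM at week 5, against 125 and 0 CPM at week 0. The value of 0 came from 5 cells with 26370 UMIs of all genes, too few to show that Pdgfb was absent or lower there.

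Tgfb1 (chromosome 7 at 25687002-25705077, plus strand) was found in every microglial cluster and did not pass the test. It had 258 and 313 CPM at week 5, against 374 and 470 CPM at week 0, with no overlap between the weeks. The log2 fold change was -0.34 (SE 0.27, adjusted p = 0.695 by edgeR) in the microglial clusters and -0.36 (adjusted p = 0.656) in all cells. Per cluster at week 5, Tgfb1 stood at 209 CPM in the Spp1-led, 267 CPM in the Ccl4-led, 306 CPM in the Rtp4-led and 396 CPM in the Fam110a-led cluster. At week 0 the Rtp4-led cluster had 349 CPM and the Fam110a-led cluster 466 CPM. Of the members, Tgfb1 ran most against Igf1, with a Pearson r of -0.74 across 24 sums of a cluster in a library. These sums share libraries and depth, and the value is a description.

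Vegfa (chromosome 17 at 46016993-46032369, minus strand) was detected in few cells. It had 38 and 11 UMIs, or 6.16 and 3.65 CPM, in the microglial clusters at week 5, against 6 and 5 UMIs, or 2.70 and 1.13 CPM, at week 0. The weeks did not overlap, and the log2 fold change of 1.81 (SE 0.61) had an adjusted p of 0.174 by edgeR. Like Igf1, it entered the test through its week 5 counts. The Ccl4-led cluster had 18 UMIs at week 5, of which 16 came from replicate 1, and the Spp1-led cluster had 14, all from replicate 1. Among the few non-myeloid cells, 15 oligodendrocyte-like cells of week 5 had 6 Vegfa UMIs, or 130 CPM (48 to 284), and 0 Igf1 UMIs, which allows up to 20.0% of such cells with an Igf1 UMI.

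Vegfb (chromosome 19 at 6982473-6987651, minus strand) overlapped between the weeks, with 67.6 and 59.0 CPM at week 5, against 50.4 and 63.6 CPM at week 0. The log2 fold change was 0.40 (SE 0.24, adjusted p = 0.556 by edgeR). Its lowest levels were in shallow cells. The larger of the clusters led by Gm43221, which has a median of 1281 UMIs per cell, had 22.1 CPM at week 5 and 20.7 CPM at week 0. The Spp1-led cluster had 83.0 CPM at week 5, and the Rtp4-led cluster 61.2 CPM at week 5 and 73.5 CPM at week 0. The 2 Gm43221-led clusters held 22.0% and 40.0% of cells at week 5, against 73.9% and 16.1% at week 0. The part of depth in the Vegfb values was not tested beyond the thinned fits.

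Grn (chromosome 11 at 102430315-102437048, plus strand) was the member with the most UMIs. It had 1685 and 1206 CPM in the microglial clusters at week 5, against 1074 and 1064 CPM at week 0. The weeks did not overlap, and the means were 1446 ± 338 CPM at week 5 and 1069 ± 6.71 CPM at week 0 (SD, n = 2 each). The log2 fold change was 0.70 (SE 0.37, adjusted p = 0.479 by edgeR). With each cell thinned to 1000 UMIs, 76.0% and 62.2% of microglial cells had a Grn UMI at week 5, against 62.6% and 63.4% at week 0. The weeks overlapped in that measure. By CPM the replicates of week 5 differed. Week 5 replicate 1 was also higher than replicate 2 within the clusters that follow. The Spp1-led cluster had 1884 and 1180 CPM of Grn in week 5 replicates 1 and 2, and the Ccl4-led cluster 1765 and 1258 CPM. The Rtp4-led cluster had 1489 and 1326 CPM at week 5, against 1019 and 1163 CPM at week 0. The Fam110a-led cluster had 1177 CPM at week 5 and 1070 CPM at week 0. The choroid plexus-like cells, at 174 CPM, and the oligodendrocyte-like cells, at 43.5 CPM, were far lower at week 5. Exons of Grn overlap those of Fam171a2 on the opposite strand, with the same limit as for Pdgfa.

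Leaving out week 5 replicate 2 raised several of these values. Without it the log2 fold changes in the microglial clusters were 1.02 for Pdgfa, 2.24 for Vegfa, 0.66 for Vegfb and 1.08 for Grn. That fit rests on a lone week 5 library assumed to vary like the week 0 libraries.

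**Figure D3:**
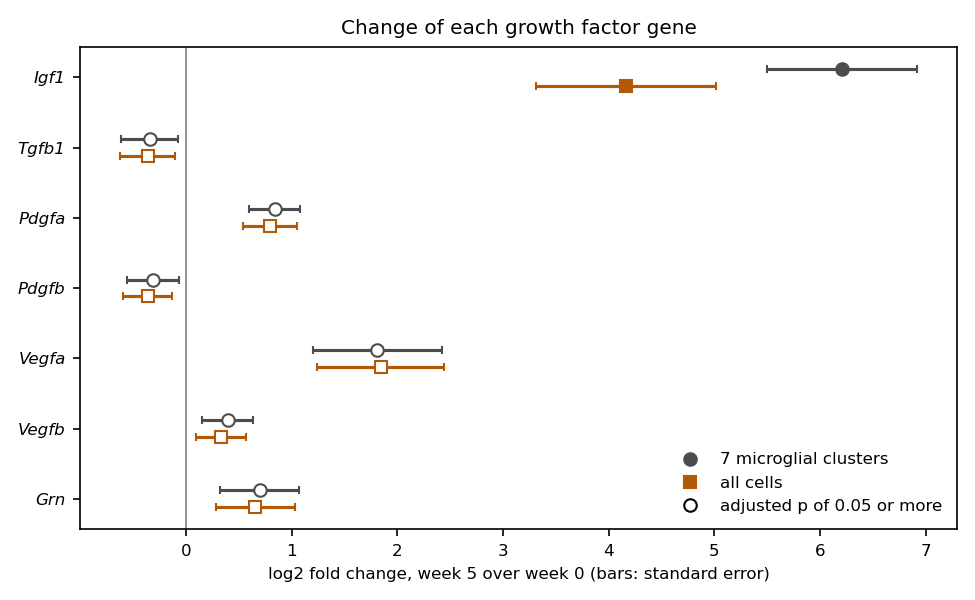
Log2 fold change, week 5 over week 0 (x axis), of each growth factor gene with its standard error, in the 7 microglial clusters (circles) and in all cells (squares); filled marks have an adjusted p under 0.05. Igf1 at 6.21 and 4.16 carries the filled marks, and Tgfb1 and Pdgfb lie below 0.

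**Figure D4:**
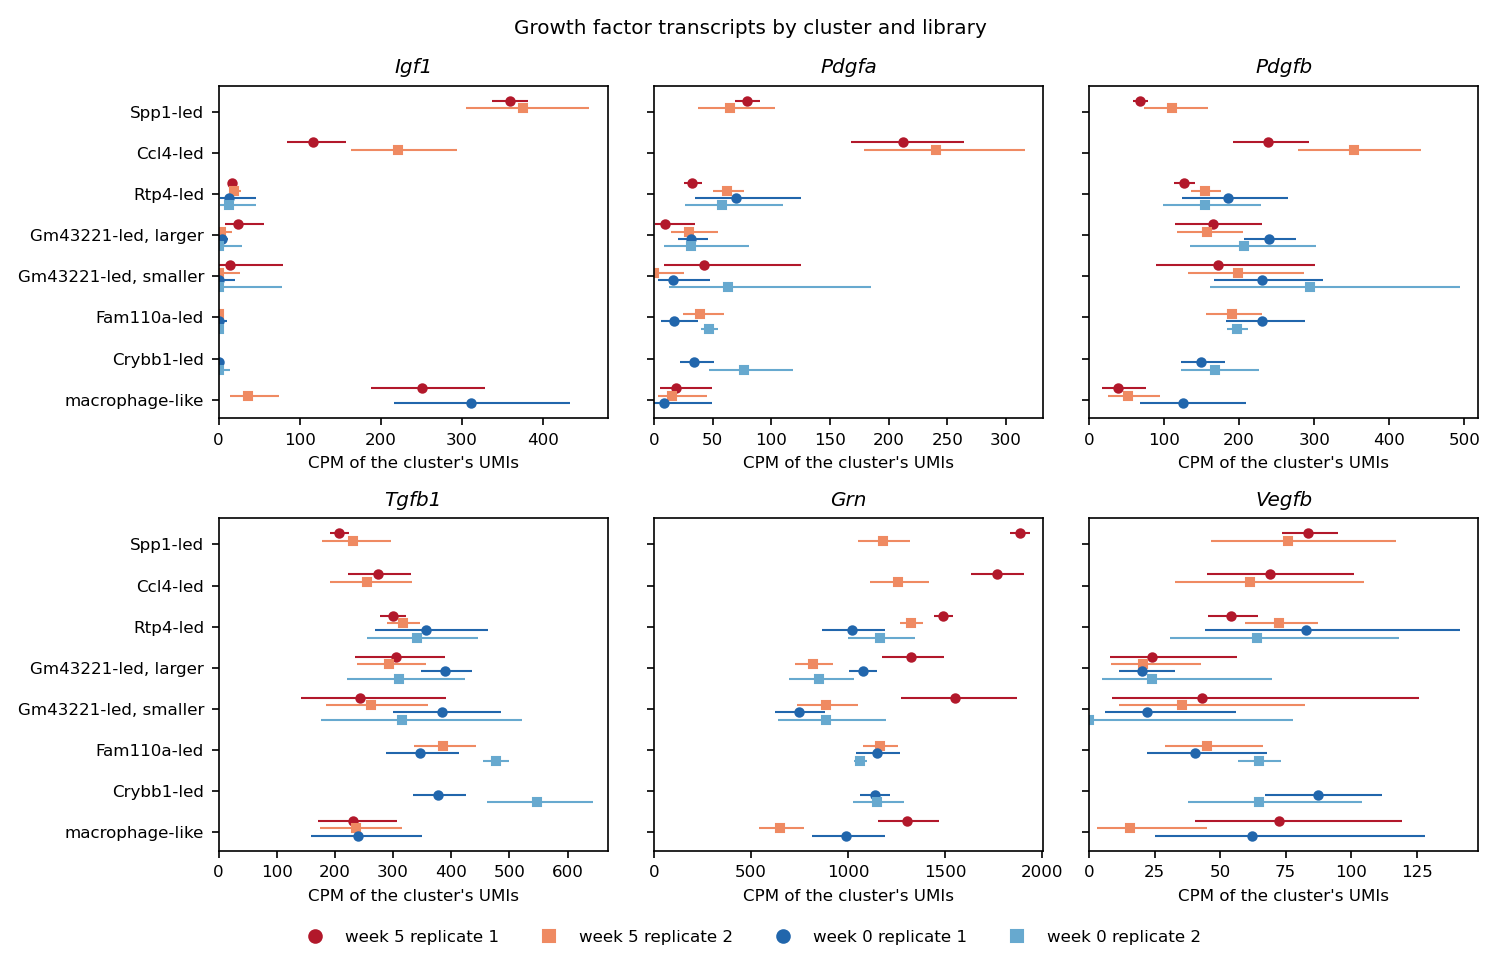
CPM (x axis, linear from 0) of 6 of the genes by cluster (y axis) and library, shown where a library had at least 20 cells of the cluster, with 95% Poisson intervals. Igf1 is highest in the Spp1-led cluster of both week 5 libraries (359 and 376 CPM), Pdgfa in the Ccl4-led cluster (212 and 240 CPM).

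Genes whose levels followed each member most closely were ranked over the same 24 cluster sums among 3650 genes. For Igf1 they were Lgals3 (Pearson r 0.88), Ctsb (0.88), Cybb (0.88), Crip1 (0.87) and Anxa5 (0.86). For Tgfb1 they were Bin1 (0.87), Pmepa1 (0.84) and Sox4 (0.84), for Pdgfa Eif4a1 (0.81), Cd9 (0.78) and Ctsz (0.74), and for Pdgfb Gtpbp4 (0.88), Skil (0.86) and Map1s (0.85). For Grn the closest were Ctsa (0.82), Ctsl (0.79) and Psap (0.78), and for Vegfb Srp14 (0.88), Ndufs3 (0.87) and Ptms (0.87). Among members, Pdgfa and Vegfa had an r of 0.57 and Igf1 and Pdgfa an r of 0.29.

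The receptor and handling genes of each pathway were counted from lists beside the same shares of all genes. Of 15 genes of the insulin-like growth factor axis 5 were tested in the microglial clusters, with 0 rising and 0 falling. Igf1r had 45.5 and 53.0 CPM at week 5, against 81.9 and 66.1 CPM at week 0, a log2 fold change of -0.35 (adjusted p = 0.558 by edgeR). In all cells 1 gene of this axis rose, Igf2r, the scavenger receptor for Igf2 (2.65, adjusted p = 0.0448), which missed the threshold in the microglial clusters (3.11, adjusted p = 0.0565). Over 12 alternatives in all cells its adjusted p ran from 0.00359 to 0.33. The call was lost in 8 of them, which were DESeq2's Wald test, limma-voom, library size alone, the replicate block (0.0576), the common limit on genes per cell, and leaving out any library but week 5 replicate 2. In the microglial clusters 5 of 13 alternatives called it, the replicate block among them (0.0329). In all cells Igf2r had 2 and 5 UMIs in the week 0 libraries, and it entered the test through its week 5 counts. Igf2 itself had 2 UMIs at week 5 and 0 at week 0 in the microglial clusters.

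Of 23 genes of the transforming growth factor beta axis 17 were tested, with 0 rising and 0 falling and a median log2 fold change of -0.19. The receptor chain Tgfbr1 had 805 and 1172 CPM at week 5, against 1646 and 1412 CPM at week 0 (log2 fold change -0.42, adjusted p = 0.706). Tgfbr2 had a log2 fold change of -0.21 (adjusted p = 0.835), and Nrros, which anchors latent Tgfb1 on microglia, -0.19 (adjusted p = 0.831). Of 7 genes of the platelet-derived growth factor axis 3 were tested and 0 rose or fell. The precursor receptor Pdgfra was listed in 0 of the 4 tables, and the pericyte receptor Pdgfrb had 0 UMIs in the microglial clusters, which allows up to 0.19 CPM.

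Of 15 genes of the vascular endothelial growth factor axis 9 were tested, with 2 rising, 0 falling and a median of 0.48. Flt1, a high-affinity receptor that can hold back Vegfa, had 40.4 and 8.29 CPM at week 5, against 0.90 and 0.45 CPM at week 0. Its log2 fold change was 5.62 (SE 0.93, adjusted p = 0.00533 by edgeR), and limma-voom did not call it (adjusted p = 0.151). Like Igf1, Flt1 was nearly absent at week 0, with 2 UMIs in each library, and entered the test through its week 5 counts. At week 5 it lay in the Spp1-led cluster, with 221 UMIs or 69.5 CPM, and in the Ccl4-led cluster, with 40 UMIs or 67.9 CPM. Flt1 is itself 1 of the 7 endothelial markers, whose sum in the microglial clusters was 56.7 and 24.9 CPM at week 5, against 45.4 and 30.3 CPM at week 0. Of the others, Cldn5, Ly6c1, Tie1 and Esam were at 0 in every library, Pecam1 had 8.27 and 13.3 CPM at week 5, against 36.0 and 25.6 CPM at week 0, and Kdr overlapped between the weeks. Their part in the Flt1 result was not tested. Without week 5 replicate 1 the value for Flt1 was 3.76 and without the Spp1-led cluster 3.83, and it passed in both fits.

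Egln3, an oxygen sensor that limits Hif1a, had 17.7 and 4.97 CPM at week 5, against 1.80 and 0.91 CPM at week 0 (log2 fold change 3.54, SE 0.73, adjusted p = 0.0199). With 4 UMIs in each week 0 library, Egln3 too entered the test through its week 5 counts. It no longer passed without week 5 replicate 1 (2.06, adjusted p = 0.447), without week 0 replicate 2 (3.02, adjusted p = 0.152), without the Spp1-led cluster (1.91, adjusted p = 0.195) or with limma-voom (adjusted p = 0.126). Kdr, the main receptor of Vegfa on vessels, had 8.10 and 3.31 CPM at week 5, against 8.55 and 4.30 CPM at week 0 (log2 fold change 0.28, adjusted p = 0.903). Nrp1 had 167 and 191 CPM at week 5, against 130 and 168 CPM at week 0 (0.48, adjusted p = 0.444).

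Of 14 genes of the progranulin axis 11 were tested, with 1 rising, 0 falling and a median of 0.38. The riser was Gpnmb, a membrane glycoprotein of lysosomes, with 688 and 59 UMIs at week 5 and 0 UMIs in either week 0 library. With 3 UMIs taken as the most that the 2 week 0 libraries together could hide, Gpnmb was at least 247-fold higher in replicate 1 of week 5. In replicate 2 it was at least 43.3-fold higher (adjusted p = 0.00311 by edgeR, 0.0724 by limma-voom). Gpnmb likewise entered the test through its week 5 counts. Sort1, the uptake receptor of progranulin, had 88.3 and 104 CPM at week 5, against 174 and 132 CPM at week 0 (log2 fold change -0.44, adjusted p = 0.478). Psap, which carries progranulin to lysosomes, had 2006 and 1836 CPM at week 5, against 1571 and 1596 CPM at week 0 (0.52, adjusted p = 0.641).

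Of 34 other secreted factors for precursors, neurons and vessels 12 were tested, with 3 rising, 0 falling and a median of 0.65. Csf1, the growth factor of microglia and macrophages themselves, had 140 and 68.3 CPM at week 5, against 13.5 and 16.3 CPM at week 0 (log2 fold change 3.08, SE 0.40, adjusted p = 0.00116). At week 5 it was 348 CPM in the Ccl4-led and 221 CPM in the Spp1-led cluster. Spp1, which encodes osteopontin, rose by 9.51 on the log2 scale (SE 0.72, adjusted p = 5.69e-05). Lgals3, galectin-3, rose by 5.68 on that scale (SE 0.39, adjusted p = 3.6e-05). Without week 5 replicate 1 the log2 fold changes were 2.26 for Csf1, 8.43 for Spp1 and 5.27 for Lgals3, and without week 0 replicate 2 that of Lgals3 was 6.52. Without the Spp1-led cluster they were 2.08 for Csf1, 6.45 for Spp1 and 3.78 for Lgals3, and the 3 genes passed in each of these fits. At week 0 Spp1 had 3 and 6 UMIs and Lgals3 4 and 18 UMIs, so both entered the test through their week 5 counts. These lists hold few tested genes each, and their called shares are set only beside the 3.13% of all genes that rose.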

How the data were processed

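For each library the authors deposited 1 table of UMI counts, whole numbers by gene and barcode that were not normalized, as the values show; the submitters' processing notes name mm10 as the build, and STAR, Seurat 4 and Cell Ranger 3.0.0 as tools, without roles. How barcodes and genes were chosen is not stated, and the upper end of genes per cell was unequal (3999 and 2996 at week 5, 2999 and 6615 at week 0). The lowest barcode total was 510 UMIs, and 6 barcode sequences occurred in 2 libraries. Kept barcodes had 500 or more genes and no more than 10% of UMIs from mitochondrial genes, 272 of 4000 being removed. Scrublet marked 21 as doublets (0.563%), which were dropped.

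Cells were clustered with scanpy 1.11.5 (10000 UMIs per cell, log, 2000 variable genes, 30 components, 15 neighbours, Leiden resolution 1, repeated at 2). The 7 members were kept out of the variable genes, among which 3 would have been. Clusters were compared with marker lists, and how many markers a name needs was decided with the clusters in view. The sum called microglia-like in the plan is that over the 7 microglial clusters.

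UMI counts were summed per library and tested with edgeR 4.0.16 in R 4.3.3 (TMM, its filter on low counts, quasi-likelihood test, Benjamini-Hochberg over all genes tested, threshold 0.05, no covariates). CPM values are plain, per total UMIs. An SE is the log2 fold change over the square root of F. On simulated counts for the microglial sums (about 10845 genes), 44.6% of 2-fold and 99.2% of 4-fold changes were recovered and 6.77% of calls were false. The changed genes were drawn from those with high counts, and all libraries started from equal proportions. These rates therefore do not cover genes with few UMIs, such as Vegfa, or genes nearly absent at week 0, such as Igf1. Intervals are 95% exact Poisson or Clopper-Pearson and, like the floor of 3 counts, cover counting error only, since molecules of a library are not independent of its handling. The smaller the total, the wider they are.

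The members and lists were chosen with earlier results of these data known. The text names all 7 members, up to 6 called genes of each list with the largest change, 11 receptor or partner genes, and the genes with the highest Pearson r of log2(CPM + 10) over cluster sums of at least 20 cells, 5 for Igf1 and 3 for other members with a mean of at least 10 CPM (Vegfa was below it). Genes so ranked needed a mean of at least 50 CPM. Alternatives were other size factors, DESeq2 1.42.0, limma-voom (limma 3.58.1), no filter on genes or cells, thinning to 1000 UMIs per cell, a common limit of 2996 genes per cell, leaving out each library, a replicate block and other clusterings. Promoter letters are from RefSeq, which had entries for 6 of the 7 members; Pdgfb had none.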

Additional observations from a re-analysis of the deposited data

How the results depend on the processing

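Of 279 values recomputed under an alternative, 248 kept their direction and their side of the threshold or moved little. Igf1 rose under every alternative in the microglial clusters (log2 fold change 3.84 to 7.01). In all cells DESeq2's Wald test did not call it (3.95, 0 members called, adjusted p over all alternatives 4.66e-41 to 0.245). The 385 genes called in the microglial clusters became 843 with no gene filter, 812 with the crossed replicate block and 160 with thinned cells, and 154 to 1496 on leaving out a library. The 302 called in all cells became 918 with no gene filter, 183 with thinned cells and 501 under 1 upper limit of genes per cell for all libraries, and 265 to 1341 on leaving out a library. Without a gene filter 3 members were called in either set, adding Pdgfa (0.83 in microglial clusters, 0.79 in all cells) and Vegfa (1.80 and 1.82). On leaving out a library the values in microglial clusters ran from 0.59 to 1.18 for Pdgfa and 1.14 to 2.39 for Vegfa. Those of Vegfb ran from 0.13 to 0.66 and those of Grn from 0.27 to 1.08. In all cells the values for Pdgfa ran from 0.52 to 1.18. The cause was not tested. Same-numbered libraries did not deviate together (correlation -0.14 in microglial clusters, -0.04 in all cells). This uses a lone replicate difference per week, and the replicates also differed in depth and cluster make-up. It therefore cannot say whether same-numbered libraries shared a day or handling, which is not stated. With the replicate block, 441 genes were called in microglial clusters (Igf1 5.91) and 379 in all cells (Igf1 4.24). Crossed pairs, tried after seeing the data for the microglial sums, gave 2 members, Igf1 and Pdgfa (0.86). The week 5 minus week 0 difference in the share of cells with a Vegfb UMI was -0.36 points with 1500 UMIs per cell and 1.11 points with 1000. The Spp1-led cluster's share of Igf1 UMIs became 73.5% and 43.1% in week 5 replicates 1 and 2 with thinned cells, an alternative added after seeing the data, and 39.0% in replicate 2 at resolution 2. The fit without a cell filter was not run for the microglial clusters, whose names need it. Depth limits Vegfa most, with 5 to 38 UMIs per library.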
